A study of Mus musculus with 20 samples.

Results

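Expression of 10 genes of the TGF-beta pathway was followed in 2 regions of the thoracic aorta, ascending and descending, of mice given water or β-aminopropionitrile (BAPN). They are the 3 ligand genes Tgfb1, Tgfb2 and Tgfb3, the 3 receptor genes Tgfbr1, Tgfbr2 and Tgfbr3, and the 4 SMAD genes Smad2, Smad3, Smad4 and Smad7. They were chosen by gene symbol, and these 10 of the 54532 Ensembl genes in the count table are described here. RNA from bulk aortic tissue of C57BL/6J mice was sequenced in 20 libraries, 5 from ascending aorta with water, 5 from ascending aorta with BAPN, 5 from descending aorta with water and 5 from descending aorta with BAPN. The water mice are the controls, and treatment lasted 1 week in each group. Age and sex are not given in the sources used here, and no label says that the 5 libraries of a group came from separate mice, so p-values measure the spread between these libraries, which may be partly technical.

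TGF-beta ligands are secreted in a latent form that is held in the matrix of the vessel wall by latent TGF-beta binding proteins and fibrillin. Released ligand binds the type II receptor TGFBR2, which recruits and phosphorylates the type I receptor TGFBR1, while the co-receptor TGFBR3 (betaglycan) presents ligand to them. The active receptor phosphorylates SMAD2 and SMAD3, which enter the nucleus with SMAD4 and change transcription, and SMAD7 is an inhibitory SMAD that blocks the receptor. In people, inherited variants in several of these genes cause aneurysm and dissection of the thoracic aorta. BAPN is an irreversible inhibitor of lysyl oxidase, the enzyme that cross-links collagen and elastin.

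Total counts per library ran from 15744725 to 23292294, and all 10 genes passed the filter on low counts that left 15543 genes for testing. For the labelled tissue, the summed level of 6 smooth muscle markers was 18050 to 24220 CPM (counts scaled to a common effective library size), and no smooth muscle marker was at 0. Levels of 33 genes with a pseudogene name parted the 20 libraries into a higher set (ascending water 4 and 5, ascending BAPN 1 to 5, and descending water 1, 2 and 5) and a lower set of the other 10, with a gap of 1.75 between the sets on the first principal component of their log2 CPM against at most 0.507 within a set. No label names what the sets are. All ascending BAPN libraries lie in the higher set and all descending BAPN libraries in the lower one, so calls that changed with the set as a term or within a set are named below.

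Promoter sequence from the RefSeq promoter table for GRCm38.p6 is shown for 5 of the 10 members: Tgfb1, Tgfb2, Tgfbr1, Tgfbr2 and Smad3. These are not the members with a called comparison, since Tgfb2 had none in the main fit and Tgfb3, which was called between regions, is not shown. Each line gives the 250 bases before the annotated start, 5′ to 3′ on the gene's own strand, and capitals mark the SMAD core site CAGAC or its reverse complement GTCTG. The bases that follow the Tgfbr2 window were held by 0 GENCODE transcripts, and the Tgfbr2 gene model used here begins a few bases further in, at 116175360. Tgfb1 is at chr7:25686752-25687001 on the plus strand, Tgfb2 at chr1:186705990-186706239 on the minus strand, Tgfbr1 at chr4:47352972-47353221 on the plus strand, Tgfbr2 at chr9:116175364-116175613 on the minus strand and Smad3 at chr9:63757995-63758244 on the minus strand.
Tgfb1: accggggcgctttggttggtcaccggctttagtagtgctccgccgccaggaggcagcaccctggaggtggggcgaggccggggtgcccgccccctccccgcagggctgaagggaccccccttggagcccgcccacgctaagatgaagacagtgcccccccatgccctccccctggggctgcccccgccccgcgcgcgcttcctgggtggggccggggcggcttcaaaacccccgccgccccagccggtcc
Tgfb2: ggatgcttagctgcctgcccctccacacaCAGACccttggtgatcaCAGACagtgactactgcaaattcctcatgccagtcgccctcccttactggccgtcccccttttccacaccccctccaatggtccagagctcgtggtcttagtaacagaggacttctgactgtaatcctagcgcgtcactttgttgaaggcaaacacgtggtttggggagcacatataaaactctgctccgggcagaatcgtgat
Tgfbr1: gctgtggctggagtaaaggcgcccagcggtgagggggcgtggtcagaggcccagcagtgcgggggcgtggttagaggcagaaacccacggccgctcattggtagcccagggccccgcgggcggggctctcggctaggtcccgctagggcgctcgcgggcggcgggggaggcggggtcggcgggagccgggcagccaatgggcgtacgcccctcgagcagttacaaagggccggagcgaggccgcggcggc
Tgfbr2: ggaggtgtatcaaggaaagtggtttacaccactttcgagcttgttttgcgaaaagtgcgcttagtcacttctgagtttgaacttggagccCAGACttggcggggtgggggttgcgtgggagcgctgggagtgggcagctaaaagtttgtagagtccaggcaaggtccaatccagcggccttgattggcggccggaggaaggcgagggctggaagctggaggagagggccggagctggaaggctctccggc
Smad3: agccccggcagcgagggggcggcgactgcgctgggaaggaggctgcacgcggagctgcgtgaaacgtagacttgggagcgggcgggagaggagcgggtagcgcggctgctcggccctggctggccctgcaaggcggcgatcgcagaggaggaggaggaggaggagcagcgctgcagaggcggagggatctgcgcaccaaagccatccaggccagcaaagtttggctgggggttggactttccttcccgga
The core site CAGAC matched at 2 places in the Tgfb2 window and at 1 in the Tgfbr2 window, and these letters are not in the Tgfb1, Tgfbr1 and Smad3 windows printed here. The table holds a second Tgfbr1 window inside the gene, at chr4:47385966-47386215, which is not printed and has 1 match of CAGAC; the other values below are for the window printed. It is a common word, found on either strand in 42.2% of 32851 promoter windows of the same length. The GC box GGGCGG matched 5 times in Tgfb1, 2 times in Tgfbr1 and 2 times in Smad3, against 32.7% of all windows with a match. The CCAAT box (CCAAT) was found 2 times in Tgfbr1, 2 times in Tgfbr2 and 1 time in Tgfb2, against 33.8% of windows. The Tgfb2 window also held the letters TATAAA, found in 12.4% of windows, and the E-box CACGTG, found in 6.02%. The Tgfb1 and Tgfbr1 windows had a GC content of 75.2% and 74.8%, the Smad3 window 69.2%, the Tgfbr2 window 58.4% and the Tgfb2 window 53.6%.

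Levels between genes were compared as RPKM, the CPM divided by the gene's exon length in kilobases. That length joins the exons of all annotated transcripts of a gene, and the order below depends on it. Which transcripts the tissue used was not tested. Tgfb3 was the most abundant member in every group, at 59.5 ± 2.93 RPKM in ascending and 53.4 ± 2.34 RPKM in descending aorta with water (mean ± SD, n = 5). Next came the signalling receptors Tgfbr2, at 34.8 ± 1.51 and 27.1 ± 0.911 RPKM, and Tgfbr1, at 25.3 ± 1.19 and 23.2 ± 2.11 RPKM. Smad4 (21.0 ± 0.415 RPKM in ascending aorta with water), Smad7 (19.6 ± 4.55), Tgfb2 (19.2 ± 1.92) and Tgfbr3 (15.8 ± 1.28) followed, and neighbours in the order of these 4 overlapped in every group. Tgfb1 (12.2 ± 0.583 RPKM in ascending aorta with water) and Smad3 (11.2 ± 0.568 RPKM) overlapped each other in 3 groups and were apart only in descending aorta with BAPN. Smad2 was the lowest in every group, at 3.50 ± 0.234 RPKM in ascending and 3.56 ± 0.119 RPKM in descending aorta with water, below every library's Smad3. The order of Tgfbr2 and Tgfbr1 was clear in ascending aorta, where their ranges did not overlap; in descending aorta they overlapped, and with BAPN Tgfbr1 (29.8 ± 2.04 RPKM) had a higher mean than Tgfbr2 (28.5 ± 0.818 RPKM).

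**Figure D1:**
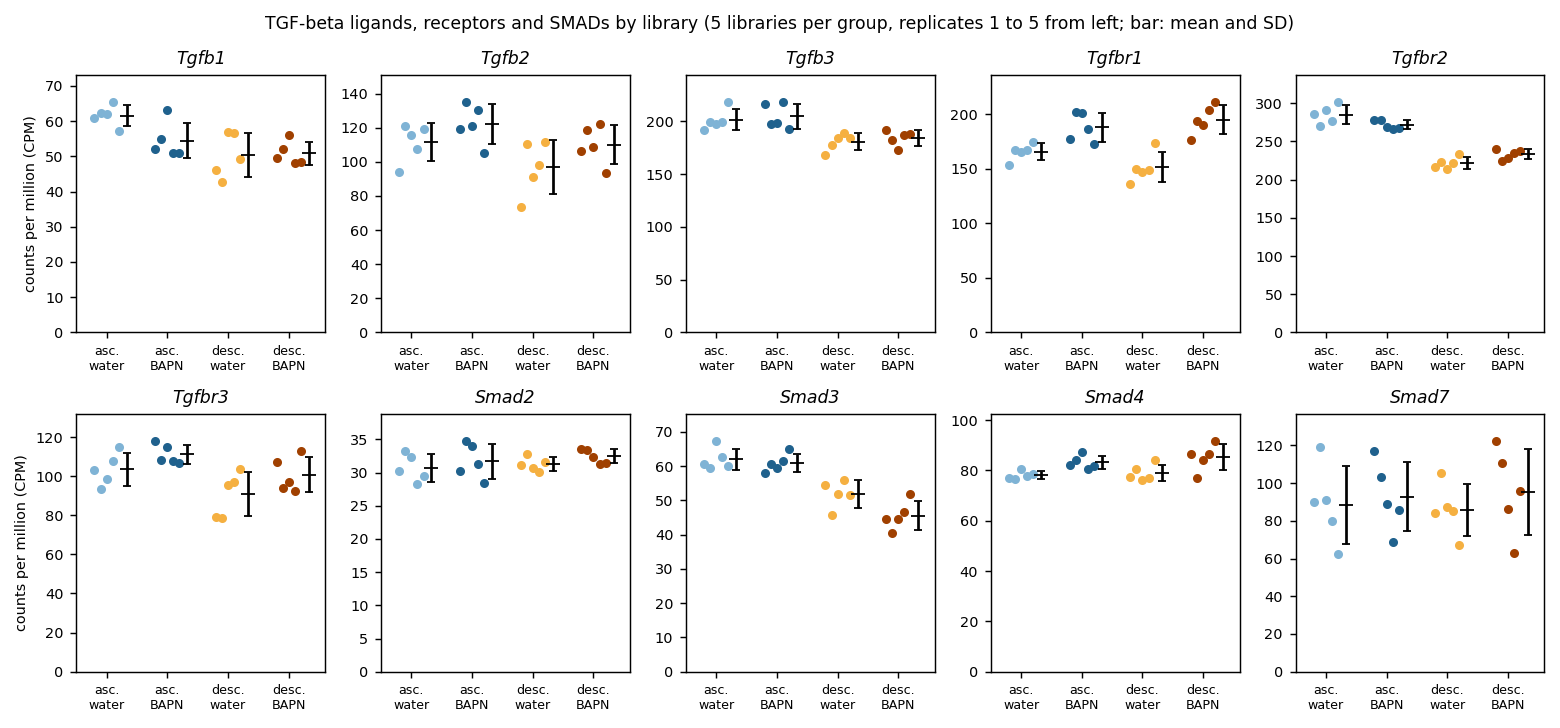
Level of each gene in CPM (y axis, from 0) in the 20 libraries, with 5 points per group in the order of their numbers and a bar for the mean and SD. Tgfbr1 stands higher with BAPN in descending aorta, Tgfbr2 and Smad3 stand lower in descending than in ascending aorta, and the Smad7 points are spread over a wide range within each group.

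With BAPN in descending aorta, 2 of the 10 genes changed: Tgfbr1 rose 1.29-fold and Smad3 fell 1.14-fold. Over all genes tested, 10.7% changed in this comparison, 6.18% higher and 4.54% lower (961 higher and 706 lower; 706 higher and 874 lower when libraries were scaled by their upper quartile). In ascending aorta, no member changed at an adjusted p under 0.05 in edgeR's quasi-likelihood test, against 6.34% of all genes (3.44% higher and 2.91% lower, or 534 and 452 genes; 449 and 529 with upper-quartile scaling and 434 and 517 without the filter on low counts). There, 3 members had an unadjusted p under 0.05, a level that 20.2% of all genes reached, DESeq2 called 1 member and limma-voom none. The signs of the fitted differences were positive for 9 members in descending and 7 in ascending aorta, with medians of 0.09 and 0.06 (log2) against a median near 0 over all genes, −0.00027 and −0.0051. Between regions the genes of this set that changed were all lower in descending aorta, 4 of 10 with water and 3 of 10 with BAPN. The count with water was 1 within the lower pseudogene set and up to 7 in other settings. The count with BAPN was 2 with the set as a term. It was 5 with same-numbered libraries of each treatment, water included, as a block, which added Tgfb2 and Tgfbr3. The background was 27.3% of genes called in either direction and 15.2% called lower with water, and 29.8% and 15.6% with BAPN. Here and below, log2 differences are those of the edgeR fit on counts with their standard error (SE), and adjusted p is the Benjamini-Hochberg value over the 15543 genes tested.

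**Figure D2:**
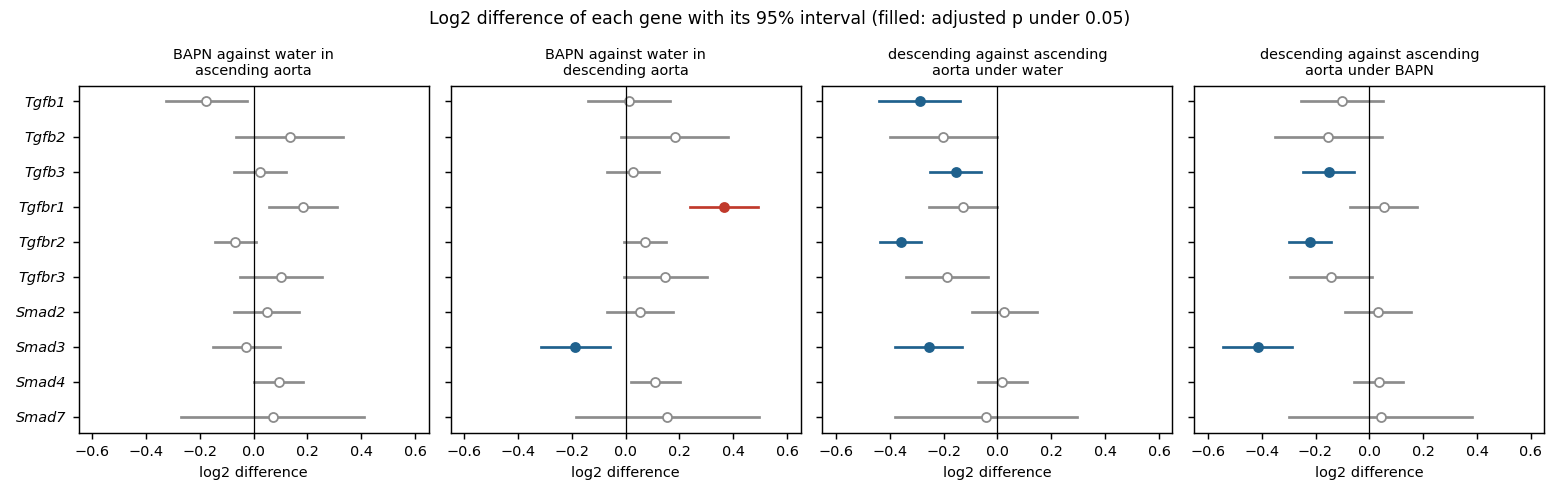
Log2 difference (x axis) of each gene in 4 comparisons, as a point with its 95% interval. Filled points passed an adjusted p of 0.05, which holds for none of the genes with BAPN in ascending aorta, for Tgfbr1 and Smad3 with BAPN in descending aorta, for Tgfb1, Tgfb3, Tgfbr2 and Smad3 between regions with water, and for Tgfb3, Tgfbr2 and Smad3 between regions with BAPN.

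Of the ligands, Tgfb1 (ENSMUSG00000002603, GRCm38 chr7:25687002-25705077, plus strand) encodes the isoform best known from immune and fibrotic tissue. In libraries 1 to 5 it was at 60.9, 62.3, 62.0, 65.4 and 57.2 CPM in ascending aorta with water and at 46.1, 42.7, 56.8, 56.6 and 49.4 CPM in descending aorta with water. Every descending library was below every ascending one, although 56.8 CPM and 57.2 CPM nearly met, and 11.7% of all genes showed no overlap in this direction. Tgfb1 was 1.22-fold lower in descending aorta (log2 −0.29, SE 0.07, adjusted p = 0.00265). Within the lower pseudogene set the log2 difference was −0.12 (adjusted p = 0.339), and within the higher set it was −0.41 (adjusted p = 0.00383). With BAPN, Tgfb1 was at 52.2, 55.0, 63.1, 51.1 and 51.0 CPM in ascending and 49.6, 52.2, 55.9, 48.1 and 48.5 CPM in descending aorta. These ranges overlapped and the regional difference did not pass (log2 −0.10, SE 0.07, adjusted p = 0.328). The BAPN comparison gave −0.18 (SE 0.07, adjusted p = 0.151) in ascending and 0.01 (SE 0.07, adjusted p = 0.947) in descending aorta, neither of which passed. RNA from bulk tissue cannot tell fewer cells of a type from less RNA per cell.

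Tgfb3 (ENSMUSG00000021253, chr12:86056745-86079041, minus strand), the most abundant ligand RNA here, was at 192, 199, 198, 199 and 218 CPM in ascending and 169, 178, 184, 189 and 184 CPM in descending aorta with water. With BAPN it was at 217, 197, 199, 218 and 192 CPM in ascending and 192, 182, 173, 187 and 188 CPM in descending aorta. The descending libraries lay below the ascending ones without overlap under both treatments, though by a narrow margin. This held for 11.7% of all genes with water and 12.1% with BAPN. Tgfb3 was 1.11-fold lower in descending aorta with water (log2 −0.16, SE 0.05, adjusted p = 0.0103) and 1.11-fold lower with BAPN (log2 −0.15, SE 0.05, adjusted p = 0.0118). The water call was lost within the lower pseudogene set (log2 −0.07, adjusted p = 0.506), and the BAPN call was lost with the set as a term (log2 −0.15, adjusted p = 0.139). BAPN itself gave 0.02 (SE 0.05, adjusted p = 0.830) in ascending and 0.03 (SE 0.05, adjusted p = 0.780) in descending aorta, with 95% intervals from −0.07 to 0.12 in both regions. Tgfb3 lies opposite Ttll5 without shared exons, and opposite Gm48008 and Gm37804 with exon overlaps of up to 257 and 130 bases. Those genes had 17 and 35 counts over the 20 libraries. Exons of Tgfb2 overlap Gm29491 (opposite strand, up to 80 bases) and those of Tgfbr3 overlap Gm43422 (same strand, up to 297 bases). Strand use in counting is not given in the sources used here, and the part of these overlaps in the counts was not tested.

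Tgfb2 (ENSMUSG00000039239, chr1:186622792-186705989, minus strand) encodes the isoform that depends most on the co-receptor TGFBR3 to bind. It was at 93.8, 121, 116, 107 and 119 CPM in ascending and 73.7, 111, 90.9, 98.1 and 112 CPM in descending aorta with water, and at 119, 135, 121, 131 and 105 CPM and 107, 119, 109, 122 and 93.4 CPM with BAPN. All 4 groups overlapped, and the library numbered 1 was the lowest in both regions with water. No comparison passed: BAPN gave 0.13 (SE 0.09, adjusted p = 0.460) in ascending and 0.18 (SE 0.09, adjusted p = 0.251) in descending aorta, and descending minus ascending aorta gave −0.20 (SE 0.09, adjusted p = 0.121) with water and −0.15 (SE 0.09, adjusted p = 0.247) with BAPN. The regional difference with water passed without ascending water library 1 (log2 −0.26, SE 0.09, adjusted p = 0.0469) and without the filter on low counts (log2 −0.20, SE 0.07, adjusted p = 0.0311). Among BAPN libraries, those with the same number in the 2 regions deviated together across genes. With same-numbered libraries of each treatment as a block, the regional difference of Tgfb2 with BAPN passed (log2 −0.15, SE 0.04, adjusted p = 0.00867). That fit paired the water libraries too, which did not all correlate by number.

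Tgfbr1 (ENSMUSG00000007613, chr4:47353222-47414931, plus strand), the type I receptor that phosphorylates SMAD2 and SMAD3, showed the largest BAPN difference of the 10 genes in descending aorta. In descending aorta it was at 136, 150.2, 147, 149 and 174 CPM with water and 176, 193, 190.5, 204 and 211 CPM with BAPN. All 5 BAPN libraries were above all 5 water libraries, the closest being 174 and 176 CPM, and the mean went from 151 ± 13.8 to 195 ± 13.4 CPM (SD, n = 5). The rise was 1.29-fold (log2 0.37, SE 0.06, adjusted p = 0.000172). It passed without each of the 20 libraries in turn (adjusted p up to 0.000937) and in all 10 other settings (adjusted p up to 0.00484), among them the 2 water and 5 BAPN libraries of the lower pseudogene set (log2 0.39). Groups that did not overlap in the higher direction made up 4.1% of all genes in this comparison. In ascending aorta Tgfbr1 was at 153, 167, 165, 168 and 174 CPM with water and 177, 202, 201, 186 and 173 CPM with BAPN. Here only the BAPN library numbered 5, at 173 CPM, fell inside the water range, and the difference of 0.18 (SE 0.06, 95% interval 0.06 to 0.31) did not pass (adjusted p = 0.0637). It passed in DESeq2 (adjusted p = 0.0387), with the 2 groups alone (0.0300), without ascending BAPN library 5 (0.0403) and without descending water library 5 (0.0327), and its adjusted p was 0.478 within the higher pseudogene set. The summed smooth muscle markers moved in the same direction, from 18050 to 20610 CPM with water to 21620 to 24220 CPM with BAPN in descending aorta and from 18140 to 19900 CPM to 21140 to 23410 CPM in ascending aorta, with 2 of the 6 markers called higher in each region. In ascending aorta 2 of 6 heart muscle markers (summing to 374 to 904.5 CPM with water and 646 to 1162 CPM with BAPN) and 1 of 6 fibroblast markers were called higher too, and in descending aorta 1 of 6 fibroblast markers was called lower and, of 5 cartilage markers, 1 higher and 1 lower. The other 9 marker lists gave no call with BAPN, and the part of these cell types in the Tgfbr1 result was not tested. Between regions Tgfbr1 gave −0.13 (SE 0.06, adjusted p = 0.114) with water and 0.05 (SE 0.06, adjusted p = 0.555) with BAPN; the water value passed without descending water library 5 (adjusted p = 0.0154).

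Tgfbr2 (ENSMUSG00000032440, chr9:116084293-116175360, minus strand), the type II receptor that binds ligand first, was lower in every descending library than in any ascending library, whatever the treatment. With water it was at 286, 269.8, 291, 276 and 301 CPM in ascending and 217, 224, 214, 222 and 233 CPM in descending aorta. With BAPN it was at 278, 278, 269, 266 and 268 CPM and 241, 224, 229, 235 and 238 CPM. The highest descending value of all 10 libraries, 241 CPM, was below the lowest ascending one, 266 CPM. Tgfbr2 was 1.28-fold lower in descending aorta with water (log2 −0.36, SE 0.04, adjusted p = 1.56e-08) and 1.17-fold lower with BAPN (log2 −0.22, SE 0.04, adjusted p = 3.12e-05). The water difference was −0.37 within each of the pseudogene sets, and both calls passed in every other setting and without each library in turn. Groups that did not overlap in the lower direction made up 11.7% of all genes with water and 12.1% with BAPN. BAPN gave −0.07 (SE 0.04, adjusted p = 0.314) in ascending and 0.07 (SE 0.04, adjusted p = 0.247) in descending aorta, values of opposite sign that did not pass.

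Tgfbr3 (ENSMUSG00000029287, chr5:107106570-107289629, minus strand), the co-receptor betaglycan, ranged from 93.4 to 115 CPM in ascending aorta with water, 107 to 118 CPM in ascending aorta with BAPN, 78.5 to 104 CPM in descending aorta with water and 92.3 to 113 CPM in descending aorta with BAPN. The descending water group held both the lowest values, in libraries 1 and 2, and a value of 104 CPM inside the ascending range. The regional difference with water, −0.19 (SE 0.07), lay near the threshold (adjusted p = 0.0555) and passed in 7 of 12 other settings, DESeq2 (0.0414) and limma-voom (0.0458) among them, and without ascending water library 2, descending water library 4 or 5, or descending BAPN library 5. Within the pseudogene sets it was −0.36 (adjusted p = 0.0136) in the higher and −0.03 (adjusted p = 0.887) in the lower one. With BAPN the regional difference was −0.14 (SE 0.07, adjusted p = 0.148), and −0.15 (SE 0.05, adjusted p = 0.0311) with same-numbered libraries of each treatment, water included, as a block. BAPN gave 0.10 (SE 0.07, adjusted p = 0.460) in ascending and 0.15 (SE 0.07, adjusted p = 0.220) in descending aorta.

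Of the receptor-regulated SMADs, Smad3 (ENSMUSG00000032402, chr9:63646767-63757994, minus strand) was lower in descending aorta, and no comparison of Smad2 passed. Smad3 was at 60.6, 59.3, 67.2, 62.5 and 60.2 CPM in ascending and 54.5, 45.6, 52.0, 55.9 and 51.4 CPM in descending aorta with water. With BAPN it was at 57.9, 60.7, 59.4, 61.5 and 64.9 CPM in ascending and 44.5, 40.4, 44.5, 46.7 and 51.8 CPM in descending aorta. Every descending library was below every ascending library, and the fall was 1.19-fold with water (log2 −0.26, SE 0.06, adjusted p = 0.00149) and 1.33-fold with BAPN (log2 −0.42, SE 0.06, adjusted p = 4.33e-06). Of all genes, 11.7% with water and 12.1% with BAPN showed no overlap in this direction. The water call was lost within the lower pseudogene set (log2 −0.21, adjusted p = 0.164), and the BAPN call passed with the set as a term (log2 −0.47, adjusted p = 0.000163). BAPN lowered Smad3 in descending aorta from 51.9 ± 3.98 to 45.6 ± 4.17 CPM (SD, n = 5; log2 −0.19, SE 0.06, adjusted p = 0.0462), although the 2 groups overlapped. That call stood near the threshold: it remained in only 5 of 20 fits with a library left out (ascending water 2, ascending water 3, ascending BAPN 5, descending water 2 or descending BAPN 5), where the adjusted p ran from 0.00874 to 0.127 over all 20, and it was lost in 5 of 10 other settings, with limma-voom (adjusted p = 0.0537) and within the lower pseudogene set (adjusted p = 0.147) among them. In ascending aorta the BAPN difference of Smad3 was −0.03 (SE 0.06, adjusted p = 0.855).

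Smad2 (ENSMUSG00000024563, chr18:76241580-76310963, plus strand) ranged from 28.3 to 33.3 CPM in ascending and 30.1 to 32.8 CPM in descending aorta with water, and from 28.4 to 34.7 and 31.3 to 33.6 CPM with BAPN. Its 4 differences lay between 0.03 and 0.05 (log2) with SE of 0.06, and none passed. Smad4 (ENSMUSG00000024515, chr18:73639009-73703780, minus strand), the partner shared with the BMP branch, was at 78.1 ± 1.54 CPM in ascending and 79.1 ± 3.27 CPM in descending aorta with water, and at 83.3 ± 2.68 and 85.2 ± 5.23 CPM with BAPN (SD, n = 5). In ascending aorta every BAPN library was above every water library, by as little as 80.5 against 80.4 CPM, a pattern that 4.2% of all genes showed, and the difference of 0.09 (SE 0.04) did not pass (adjusted p = 0.221). In descending aorta the groups overlapped and the difference of 0.11 (SE 0.04) did not pass (adjusted p = 0.113), except without descending BAPN library 2 (adjusted p = 0.0269). The ascending water group of Smad4 had a coefficient of variation of 1.98%, the smallest of any member in any group.

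Smad7 (ENSMUSG00000025880, chr18:75367529-75395935, plus strand), the inhibitory SMAD whose gene is itself a rapid target of the pathway, had the highest coefficient of variation of the 10 genes in 3 of the 4 groups. In descending aorta with water it was 15.9%, against 16.2% for Tgfb2. Smad7 was at 89.8, 119, 90.9, 80.1 and 62.3 CPM in ascending and 84.0, 105, 87.6, 85.1 and 66.9 CPM in descending aorta with water, and at 117, 103, 89.0, 68.8 and 85.7 CPM and 122, 110.4, 86.4, 62.7 and 95.8 CPM with BAPN. Its coefficient of variation was 15.9% to 23.9% within the 4 groups, and all groups overlapped. No comparison passed, and the intervals were wide: the BAPN difference was 0.07 (95% interval −0.27 to 0.41) in ascending and 0.15 (−0.19 to 0.49) in descending aorta. Library numbers tracked this spread, in that the library numbered 2 was the highest with water in both regions and the one numbered 4 the lowest with BAPN in both. Over the 10 pairs of ascending and descending libraries of a treatment with the same number, deviations of log2 CPM from the group means correlated with Pearson's r = 0.928 (exact permutation p = 0.000625 over 14400 orders within treatment, 0.00625 adjusted over the 10 members) and Spearman's rho = 0.879 (exact permutation p = 0.00271, adjusted 0.0271). Without the 2 pairs farthest from the median ascending value r was 0.942. Tgfb2 gave r = 0.914 (exact permutation p = 0.00194, adjusted 0.00972) and rho = 0.806 (exact permutation p = 0.0142, adjusted 0.0712), and r = 0.704 without its 2 farthest pairs. For the other 8 members the adjusted permutation p was 0.21 or more for r and 0.200 or more for rho, with r from −0.377 for Smad4 to 0.569 for Tgfbr3. The median r over all genes tested was 0.103, and 15.3% of genes had an r above 0.5. The labels do not say whether a number marks a mouse, a dissection or a day, and no pseudogene set holds enough pairs to repeat this within a set.

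**Figure D3:**
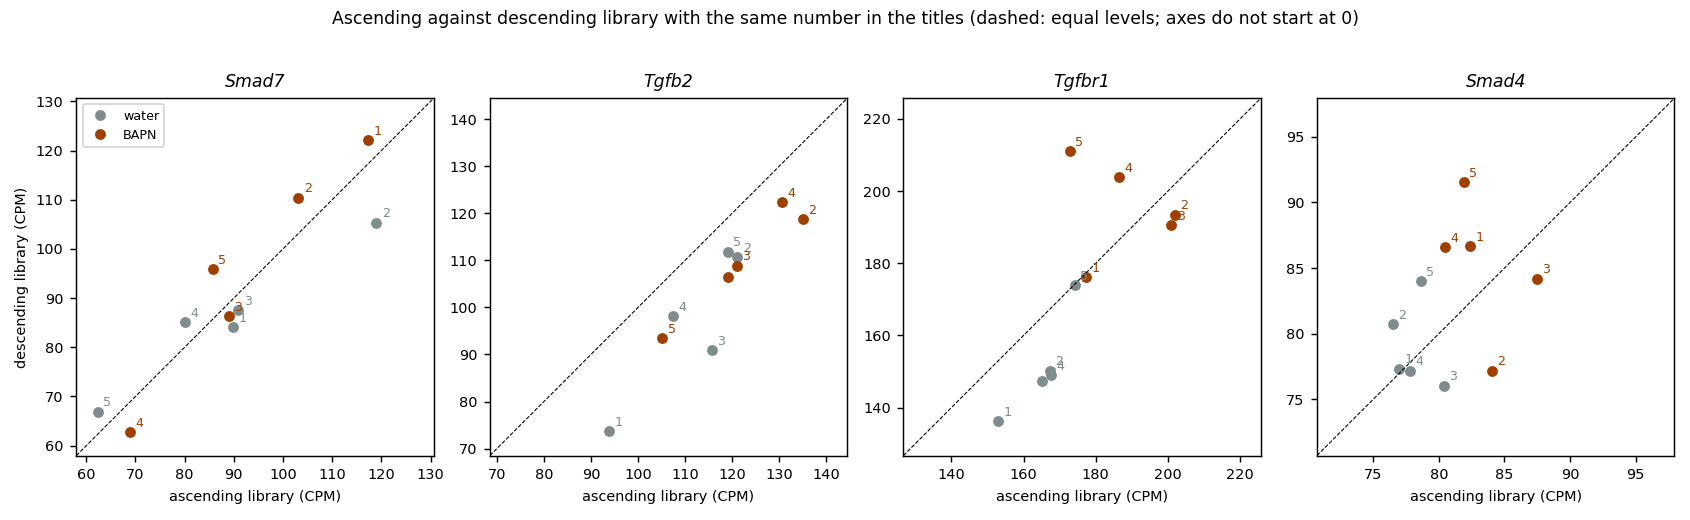
Level of 4 genes in CPM in the ascending library (x axis) and in the descending library of the same treatment and number (y axis), with the number beside each point, water in grey and BAPN in brown, and a dashed line of equal levels; axes do not start at 0. The Smad7 and Tgfb2 points run along a rising line under both treatments, the Tgfbr1 points do so with water but not with BAPN, and the Smad4 points under neither.

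The difference between the BAPN effects of the 2 regions was tested directly. It passed for none of the 10 members in edgeR, DESeq2 or limma-voom, and for 0% of all genes in edgeR, where 6.88% of genes (1070) and 2 members had an unadjusted p under 0.05. The members were Tgfbr2, with a difference of 0.14 (descending minus ascending, SE 0.05, unadjusted p = 0.013, adjusted p = 0.572), and Tgfbr1, with 0.18 (SE 0.08, unadjusted p = 0.0393, adjusted p = 0.694). For Smad3 the difference was −0.16 (95% interval −0.34 to 0.02), and for Tgfb1 it was 0.19 (−0.03 to 0.40). The rise of Tgfbr1 and the fall of Smad3 in descending aorta are therefore not shown to differ from their values in ascending aorta.

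Between regions, RNA of neighbouring tissues differed too. Heart muscle markers summed to 374 to 1162 CPM in ascending and 8.30 to 15.5 CPM in descending libraries, and mesothelium markers to 191 to 355 and 0.571 to 11.5 CPM; 6 of 6 and 4 of 4 were called lower in descending aorta under both treatments. Cartilage markers summed to 144 to 242.5 CPM in ascending and 54.8 to 67.5 CPM in descending libraries. Of these 5 markers, 5 were called lower in descending aorta with water and 4 with BAPN. T cell markers gave 1 call, lower with water, and platelet and megakaryocyte markers 1, lower with BAPN. Fibroblast markers summed to 1898 to 2367 and 1409 to 1779 CPM, with 2 of 6 called higher and 3 lower in descending aorta, while macrophage markers, at 325 to 513 CPM over all libraries, gave no call. Schwann cell markers summed to 17.7 to 24.0 CPM in ascending and 8.83 to 13.9 CPM in descending libraries, with 3 of 4 called lower in descending aorta. Of 4 brown adipocyte markers (85.1 to 142 and 109 to 221 CPM), 3 were called higher there under both treatments, and 1 was called lower with water. Of 6 endothelial markers (835 to 1266 and 1178 to 1512 CPM), 1 was called higher in descending aorta with water and 2 with BAPN, and of 5 white adipocyte markers 2 were called higher with water. No marker of these lists was at 0 in every library. The part of these cell types in the lower Tgfb1, Tgfb3, Tgfbr2 and Smad3 of descending aorta was not tested. Smooth muscle markers gave no call between regions.

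The balance between members within a library is given as a description. The ratio of Tgfbr1 to Tgfbr2 per length was 0.729 ± 0.0414 in ascending and 0.853 ± 0.0535 in descending aorta with water, and 0.866 ± 0.0614 and 1.05 ± 0.0777 with BAPN (mean ± SD, n = 5). The mean was thus higher with BAPN in both regions. In ascending aorta the highest water ratio, 0.776, was below the lowest BAPN ratio, 0.799. In descending aorta the water range of 0.787 to 0.934 met the BAPN range of 0.917 to 1.11. How often ratios of other genes part in this way was not counted. The ratio of Smad3 to Smad2 was 3.21 and 3.06 in ascending aorta with water and BAPN, and 2.64 and 2.23 in descending aorta. Of the summed RPKM of the 3 ligands, the group means were 65.2% to 66.7% for Tgfb3, 20.8% to 22.8% for Tgfb2 and 11.7% to 13.5% for Tgfb1. Differences in these ratios and shares were not tested, nor was a difference between regions in the effect of BAPN on them.

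**Figure D4:**
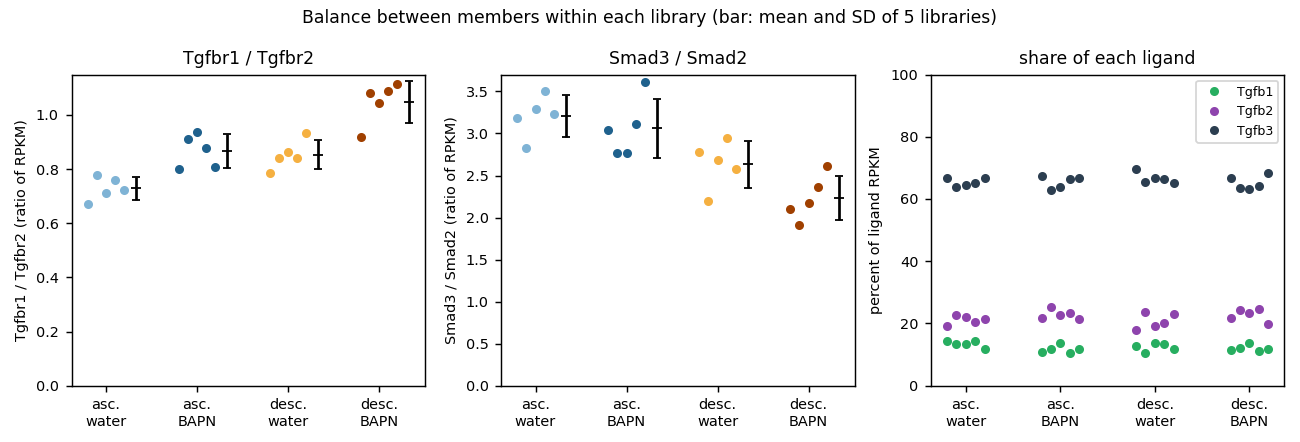
Ratio of Tgfbr1 to Tgfbr2, ratio of Smad3 to Smad2 and percentage of each ligand in the 3 ligands, all from RPKM (y axes from 0), in each of the 20 libraries with the mean and SD of each group for the ratios. The receptor ratio is highest in descending aorta with BAPN, the mean Smad3 to Smad2 ratio is lower in descending aorta, and Tgfb3 makes up the largest share of the ligands in every library.

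Once group means were removed, members deviated in both directions from each other. Of the 45 pairs of members, 27 had a positive r of deviations over the 20 libraries, with a median of 0.107. The highest were Tgfbr2 with Smad4 (0.628), Tgfb2 with Tgfbr1 (0.583) and Tgfb3 with Tgfbr3 (0.562), and the lowest were Tgfb2 with Smad3 (−0.479) and Tgfbr1 with Smad7 (−0.386). These values share libraries and depth and carry no test.

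Out of the tested genes averaging 5 CPM or more, the 2 whose log2 CPM was most like each member's were found by Pearson's r over the 20 libraries, with the r of deviations from group means given after it. For Tgfbr1 they were Sema3d (0.926 and 0.810) and Dennd4a (0.912 and 0.728), and for Tgfbr2 Plekha6 (0.969 and 0.545) and Mmp2 (0.959 and 0.404). The values for Tgfbr2 thus dropped most when the group means were removed. For Tgfbr3 they were Zrsr1 (0.877 and 0.831) and Lrp1 (0.855 and 0.767). For the ligands they were Fam129b (0.862 and 0.773) and Ahnak2 (0.833 and 0.790) with Tgfb1, Eml4 (0.798 and 0.738) and Usp25 (0.796 and 0.670) with Tgfb2, and Adam22 (0.869 and 0.763) and Lamb1 (0.864 and 0.655) with Tgfb3. Smad7 was most like Socs1 (0.845 and 0.870) and Sertad3 (0.819 and 0.862), which kept their r without the group means. For the other SMADs they were Gas2l3 (0.933 and 0.688) and Myo18b (0.929 and 0.605) with Smad3, Ranbp2 (0.913 and 0.856) and Gnaq (0.888 and 0.777) with Smad4, and Mum1l1 (0.738 and 0.691) and Set (0.735 and 0.718) with Smad2.

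The other genes of the pathway were counted in 6 lists, chosen with earlier results of these data known. Over all genes tested, 6.34% were called with BAPN in ascending aorta (3.44% higher and 2.91% lower). In descending aorta 10.7% were called (6.18% higher and 4.54% lower). Of 17 tested genes of latency and activation (Itgb6, with 56 counts in all, was not tested), 2 were higher and 1 lower with BAPN in ascending aorta, and 4 higher and 0 lower in descending aorta, with medians of −0.0019 and 0.12 (log2). Lrrc32, which tethers latent TGF-beta at the cell surface, rose from 64.8 to 79.3 CPM in ascending (log2 0.29, SE 0.07, adjusted p = 0.0104) and from 95.02 to 118 CPM in descending aorta (log2 0.31, SE 0.07, adjusted p = 0.00376). The integrin subunit gene Itgb1 rose in both regions (log2 0.17, adjusted p = 0.00557, and 0.16, adjusted p = 0.00469). Furin, which encodes a convertase that cuts the ligand precursor, rose in descending aorta (log2 0.21, SE 0.05, adjusted p = 0.00919). Thbs1, whose product can activate latent ligand, rose there from 92.1 ± 11.5 to 122.5 ± 27.7 CPM (log2 0.41, SE 0.13, adjusted p = 0.0350), a call lost without descending water library 3, 4 or 5 or descending BAPN library 2, 3 or 4, and with upper-quartile scaling, limma-voom or the 2 groups alone. Ltbp3, a latent TGF-beta binding protein gene, fell in ascending aorta (log2 −0.16, SE 0.04, adjusted p = 0.0223), a call lost without ascending water library 1 or 3 or ascending BAPN library 2, 4 or 5. Within the pseudogene sets only Lrrc32 in descending aorta kept its call among these.

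Of 18 SMAD regulators, 1 was higher in ascending and 2 were higher in descending aorta with BAPN, and none was lower, with medians of 0.02 and 0.09. Skil, whose product SnoN is a SMAD co-repressor, rose from 129 ± 11.4 to 165 ± 14.6 CPM in ascending (1.28-fold, log2 0.35, SE 0.06, adjusted p = 0.000844) and from 119.5 ± 9.36 to 159 ± 6.58 CPM in descending aorta (1.33-fold, log2 0.41, SE 0.06, adjusted p = 0.000106). Within the higher pseudogene set the ascending value was 0.25 (adjusted p = 0.133), and within the lower set the descending value was 0.46 (adjusted p = 0.00209). The ubiquitin ligase gene Smurf1 rose in descending aorta (log2 0.18, SE 0.05, adjusted p = 0.0217), a call lost without descending water library 2 or 3 or descending BAPN library 2 or 4, with the 2 groups alone (adjusted p = 0.0689) and within the lower pseudogene set (adjusted p = 0.144). Of 14 other receptors, co-receptors and SMADs of the superfamily, most of them of the BMP and activin branches, 1 was higher in each region and none was lower, with medians of 0.03 and 0.06. This was Cd109, which encodes a co-receptor of TGF-beta itself, at 0.22 in ascending (SE 0.06, adjusted p = 0.0379) and 0.22 in descending aorta (SE 0.07, adjusted p = 0.0272), calls lost without any 1 of 7 and of 6 libraries, with upper-quartile scaling and with the pseudogene set as a term.

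Of 17 tested ligands and antagonists of the BMP and activin branches (Bmp10, Mstn and Grem1, with 0, 54 and 24 counts, were not tested), 0 were higher and 1 lower with BAPN in ascending aorta, and 2 were higher and 1 lower in descending aorta, with medians of −0.04 and −0.07. The follistatin-like gene Fstl3 rose from 63.9 ± 4.92 to 83.1 ± 9.75 CPM in descending aorta (log2 0.38, SE 0.08, adjusted p = 0.00176), and Inhba, an activin subunit gene, rose 1.16-fold (log2 0.21, SE 0.05, adjusted p = 0.00529). Gdf10, a BMP-related ligand gene, fell 1.21-fold in ascending aorta (log2 −0.27, SE 0.05, adjusted p = 0.000813). Of these, Fstl3 (adjusted p = 0.101) and Inhba (adjusted p = 0.0520) lost their call within the lower pseudogene set.

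Of 20 genes known to respond to TGF-beta, 2 were higher and 4 lower with BAPN in ascending aorta, and 5 higher and 2 lower in descending aorta, with medians of −0.01 and 0.04. This list shares Tagln and Cnn1 with the smooth muscle markers, so the counts of the 2 lists are not separate. The shares called over all genes were 6.34% in ascending and 10.7% in descending aorta. Spry1, an inhibitor of receptor tyrosine kinase signalling, rose from 33.9 ± 2.99 to 48.4 ± 3.81 CPM in ascending (log2 0.51, SE 0.07, adjusted p = 2.21e-05) and from 17.7 ± 1.83 to 30.5 ± 1.10 CPM in descending aorta (log2 0.78, SE 0.07, adjusted p = 1.28e-07). The cell cycle inhibitor gene Cdkn1a rose 1.28-fold in ascending (adjusted p = 0.000626) and 1.40-fold in descending aorta (adjusted p = 1.81e-05). The transcription factor gene Bhlhe40 fell in both (log2 −0.58, adjusted p = 0.000101, and −0.64, adjusted p = 3.62e-05). The matrix genes did not share a direction: Col3a1 fell 1.21-fold in ascending aorta (log2 −0.27, SE 0.04, adjusted p = 0.000236) and the fibronectin gene Fn1 rose 1.15-fold in descending aorta (log2 0.20, SE 0.05, adjusted p = 0.00798), a call lost within the lower pseudogene set (adjusted p = 0.132). Spry1, Cdkn1a, Bhlhe40 and Col3a1 kept these calls within the sets. None of 8 BMP-responsive genes passed with BAPN in either region in edgeR, with 1 at an unadjusted p under 0.05 in each, and the difference of the BAPN effects passed for no gene of the 6 lists.

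**Figure D5:**
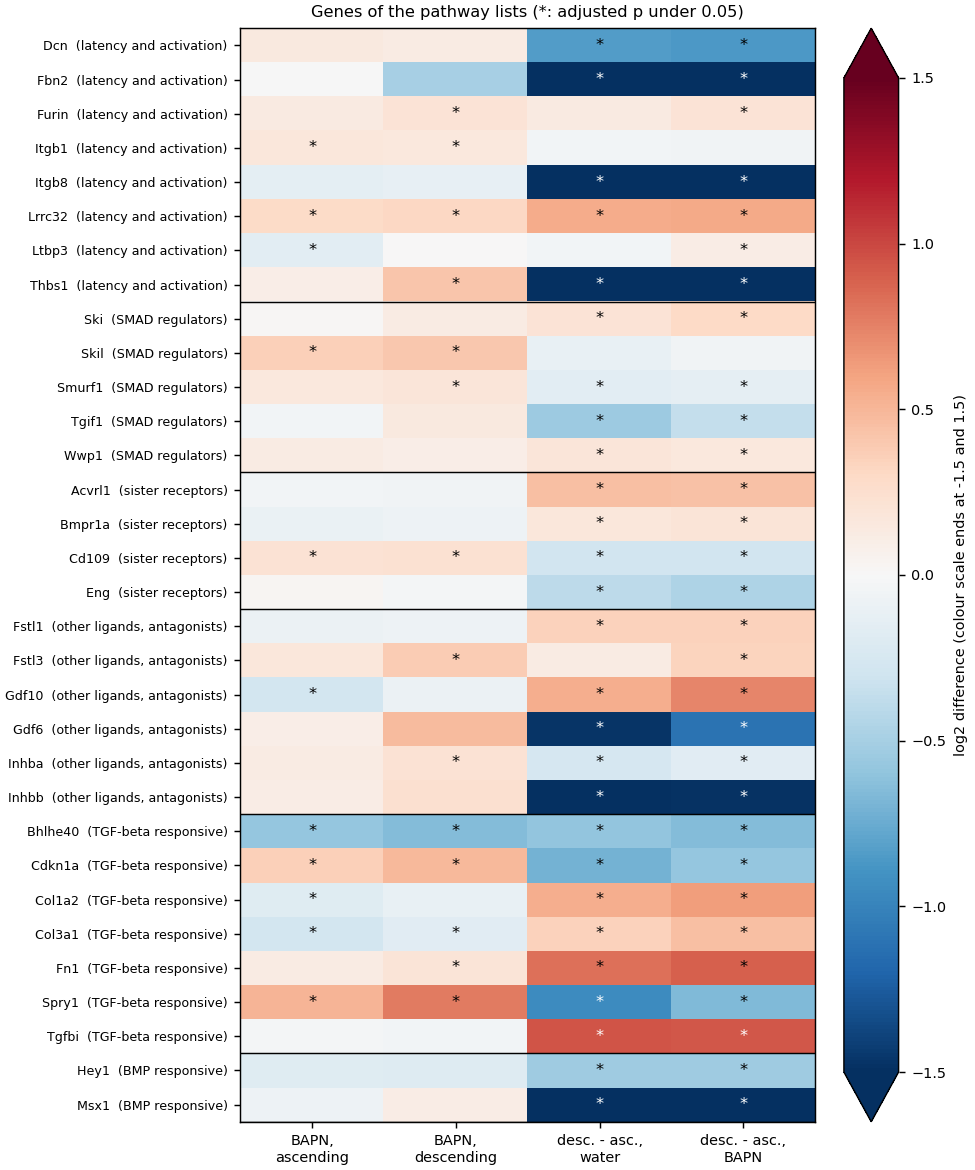
Log2 difference (colour, scale ending at −1.5 and 1.5) of the pathway genes named in the text other than Msx2, grouped by list, in 4 comparisons, with an asterisk where the adjusted p was under 0.05. Colours are stronger in the region columns than in the BAPN columns; Spry1, Skil and Lrrc32 are red and Bhlhe40 is blue in both BAPN columns.

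Between regions 5 of the 6 lists changed in both directions, against 12.1% of all genes called higher and 15.2% lower in descending aorta with water and 14.2% and 15.6% with BAPN. With water, 2 genes of latency and activation were higher and 7 lower in descending aorta. Thbs1 fell from 345 ± 16.9 to 92.1 ± 11.5 CPM (3.74-fold), the integrin gene Itgb8 from 28.7 ± 2.83 to 9.27 ± 1.89 CPM (3.11-fold), the microfibril gene Fbn2 from 4.56 ± 0.755 to 0.625 ± 0.247 CPM (7.22-fold) and decorin (Dcn), a proteoglycan gene, from 1802 ± 71.7 to 1011 ± 73.8 CPM (1.78-fold). With BAPN the list gave 6 higher and 7 lower. Of the SMAD regulators, 2 were higher (Ski, log2 0.20, and Wwp1, 0.18) and 3 lower with water, Tgif1 (−0.55) and Smurf1 (−0.15) among them; 3 were higher and 2 lower with BAPN. Of the other receptors, co-receptors and SMADs, 2 were higher and 3 lower with water, and 3 and 2 with BAPN. The type I receptor gene Acvrl1 was 1.37-fold higher in descending aorta and endoglin (Eng), its co-receptor, 1.31-fold lower, while Bmpr1a was 1.13-fold higher and Cd109 1.22-fold lower. Smurf1 lost its call without ascending water library 1 or 4 or descending water library 2 or 3, and Smurf1, Wwp1, Bmpr1a and Cd109 lost theirs within at least 1 pseudogene set.

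Of the other ligands and antagonists, 5 were higher and 7 lower in descending aorta under both treatments. Gdf10 (1.46-fold) and Fstl1 (1.27-fold) were higher with water, and the activin subunit gene Inhbb (3.08-fold) and Gdf6 (2.78-fold) were lower. The TGF-beta-responsive genes gave 6 higher and 6 lower under both treatments. Tgfbi (1.92-fold), Fn1 (1.77-fold) and Col1a2 (1.46-fold) were higher in descending aorta and Spry1 was 1.92-fold lower with water. The BMP-responsive genes gave 0 higher and 3 lower under both treatments. Msx1 fell from 27.9 ± 3.32 to 7.82 ± 1.04 CPM and Hey1 from 12.9 ± 1.38 to 8.91 ± 1.63 CPM with water. Msx2 had 78 counts in the 5 ascending and 2 in the 5 descending water libraries, a ratio of 35.9 after scaling to depth (exact 95% interval 9.62 to 302, for counting error only). The genes named here for the regional comparison had an adjusted p of 0.0221 or less, and all but Smurf1 kept their call without each library in turn. RNA of other cell types differed between the same libraries, as given above, and its part in these differences was not tested.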

How the data were processed

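Bulk RNA-seq of mouse ascending and descending thoracic aorta was used as raw counts of reads per gene deposited by the authors. Per the submitters' processing notes the tools were fastp, STAR 2.5 and HTSeq 0.6.1 on the mm10 build; per the labels' protocols RNA came from a kit for fibrous tissue and libraries from a NEBNext Ultra kit. Annotation version and strand setting are not given in the sources used here. The 20 per-library files equal the series table, and 37 of 54532 gene IDs had no match in GENCODE vM21, which gave symbols, GRCm38 coordinates and exon lengths. Region was read from the titles and treatment from the treatment label.

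All 20 libraries entered 1 quasi-likelihood fit (edgeR 4.0.16 under R 4.3.3) in which every group had its own coefficient, with TMM factors and filterByExpr (minimum count 10, minimum total 15); genes were called at a Benjamini-Hochberg adjusted p under 0.05. The procedure was run on simulated data with changes in the ascending BAPN group alone. Its recovery of changes as small as those of the members is not reported here. CPM uses TMM-scaled totals, and RPKM divides it by union exon length. DESeq2 1.42.0, limma-voom 3.58.1, relative log expression and upper-quartile factors, no filter, at least 1 CPM in 5 libraries, the 2 groups alone, a replicate block, the pseudogene sets and leaving out each library were the alternatives. Members and lists were chosen with earlier results of these data known. Named were all members, up to 4 called genes per list and comparison with the smallest p, and the 2 genes most like each member. A gene that the rule also named is counted in its list and not reported here. Same-numbered libraries of the 2 regions correlated over the 2000 most variable genes in all 5 pairs with BAPN (r from 0.216 to 0.322). A fit with the numbers as pairs was therefore added, a pairing that comes from the data and not from a label. The main fit, and the regional values from it, did not use this pairing. The block on number within treatment was fitted over all 20 libraries and so paired the water libraries as well.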

Additional observations from a re-analysis of the deposited data

Results flagged for a closer look

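In ascending aorta with water, library 5 stood apart from the other 4 for Tgfb3, at 218.2 CPM against 199.5 CPM in the nearest, a gap of 0.713 of the group's whole range where 0.71 is the 95% critical value of Dixon's test for 5 samples. It was 1 of 40 groups of 5 libraries tested over the 10 members, and chance alone flags about 1 in 20 groups. Both regional calls of Tgfb3 passed without each library in turn, this one included.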

How the results depend on the processing

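Of the calls of members, Tgfbr1 with BAPN in descending aorta and Tgfbr2 between regions under both treatments held in every alternative run and without each library; Smad3 between regions with BAPN did so too. No called value reversed. With BAPN in ascending aorta the count of members called was 0, and 1 with DESeq2, with the 2 groups alone and with the replicate block; it ran from 0 to 1 without each library. In descending aorta it was 2, and 1 with all detected genes tested, with limma-voom, with the 2 groups alone, with the pseudogene set as a term and within the lower set, and ran from 1 to 2 without each library. Between regions with water it was 4; 5 with upper-quartile factors, DESeq2, limma-voom, the replicate block and within the higher set; 6 with no filter; 1 within the lower set; and from 4 to 6 without each library. The cause was not tested.

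Over all genes, 986 were called with BAPN in ascending aorta, 542 with the pseudogene set as a term and 344 within the higher set; 1667 in descending aorta and 501 within the lower set; 4243 between regions with water and 2399 within the lower set; and 4626 between regions with BAPN and 2755 with the set as a term. The fits within a set use fewer libraries. The difference of the BAPN effects called 0 genes, 41 with all detected genes tested, 14 with DESeq2, and from 0 to 16 without each library (16 without descending water library 4, 1 without descending BAPN library 5). No set holds both BAPN groups, so neither that difference nor the BAPN regional comparison could be fitted within a set.

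Blocking on replicate number within treatment was added after seeing the data: it called 7 members between regions with water (adding Tgfb2, Tgfbr1 and Tgfbr3), 5 with BAPN, and 20 genes for the difference of effects, none a member. It blocked the water libraries by number too, so its BAPN values rest partly on that pairing. Same-numbered water libraries did not all correlate (r from −0.0493 to 0.391, 5 of 10 libraries best with their own number). Nor did water and BAPN libraries of a region (r from −0.16 to 0.284 in ascending and from −0.0195 to 0.355 in descending aorta). Outside BAPN the numbers are therefore not established as pairs. Still, the mean r of same-numbered water libraries was 0.161 against −0.04 for others, and Smad7 and Tgfb2 deviated together with water too. The replicate block over all groups changed the member calls with BAPN in ascending aorta, where Tgfbr1 passed (adjusted p = 0.0222), and Tgfbr3 between regions with water.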
